A study of Mus musculus with 12 samples.

Results

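The genes described here encode the proteasome: its 20S core, the immunoproteasome subunits, the 19S cap, the activators and the factors that assemble the particle. They were chosen by symbol alone, as every row of the count table whose symbol is Pomp or begins with Psma, Psmb, Psmc, Psmd, Psme, Psmf or Psmg and a number, without pseudogene symbols ending in -ps. This rule found 51 of the 32699 symbols in the table, and 49 of them had at least 10 counts in 3 or more of the 12 libraries. The other 2 were Psmb11, known as the core subunit of the thymus cortex, and Psma8, known from testis, with at most 4 and 8 counts in any library; both went untested. The 49 genes were 14 of the 20S core (Psma1 to Psma7 and Psmb1 to Psmb7), 3 of the immunoproteasome (Psmb8, Psmb9 and Psmb10), 21 of the 19S group (Psmc and Psmd), 6 activators and regulators (Psme and Psmf1) and 5 assembly factors (Psmg1 to Psmg4 and Pomp). Psmc3ip entered through its symbol but encodes a recombination factor, not a proteasome subunit, and its values are given apart.

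Mouse naive CD4+ T cells were stimulated in vitro through CD3 and CD28 by antibodies, which stand in for the antigen receptor and costimulation signals. The cells were wild type (WT) or Keap-1 KO (KKO), and RNA was taken at 24 h or 48 h, so that the 4 groups were WT at 24 h, KKO at 24 h, WT at 48 h and KKO at 48 h, with 3 libraries each. All 4 groups had been activated, and no resting cells were analysed here. The strain, the age of the mice and the way in which Keap1 was deleted are not given in the sources used here. Nor is it stated whether each replicate came from its own mouse or culture. Each group, however, held a library with Xist and few Y-linked transcripts and another with Y-linked transcripts and little Xist. The libraries of a group thus did not all come from the same mouse, though some of them may have. The p-values measure the spread between these libraries, which may be technical in part.

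A proteasome is a barrel of stacked rings, with an outer ring of alpha subunits that gates the entry and an inner ring of beta subunits that holds the peptide-cutting sites. The 19S cap binds ubiquitin-tagged proteins and feeds them in with a ring of ATPases, while Psme proteins form other caps. In cells exposed to interferon, and in lymphocytes, the cutting subunits encoded by Psmb6, Psmb7 and Psmb5 are replaced in newly made particles by those of Psmb9, Psmb10 and Psmb8, giving the immunoproteasome, which is known for making peptides that major histocompatibility complex class I molecules present. KEAP1 is the adaptor that hands the transcription factor NRF2 to the proteasome for destruction. NRF2, and above all its relative NRF1 (Nfe2l1), are known in other cells to raise transcription of proteasome subunit genes, so the comparison of KKO with WT asks how these transcripts stood where that adaptor was missing.

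Levels are given as CPM, counts scaled to the size of the library. The targeted gene, Keap1, measured 106, 109 and 106 CPM in WT at 24 h and 124, 132 and 122 CPM in WT at 48 h. The KKO libraries held 16.5, 15.7 and 17.5 CPM (24 h) and 22.5, 20.7 and 20.2 CPM (48 h), so all libraries matched their genotype label. Library totals were 17.8 to 32.6 M expected counts, and the proteasome genes held 0.719 to 0.895% of them. The 6 markers of CD4+ T cells summed to 1442 to 1694 CPM. The 10 B cell markers summed to 24.5 to 35.0 CPM in WT and to 49.4 to 78.6 CPM in KKO, 4 of the 9 tested being called higher at 24 h and 8 at 48 h. Of the 10 macrophage and dendritic cell markers, Clec9a and Fcgr1 were at 0 in all libraries and the 10 summed to 0.707 to 2.67 CPM; the 1 of them tested, Flt3, was called higher in KKO at 48 h. The 4 natural killer markers, of which Klrk1 was called lower in KKO at 48 h, summed to 1.57 to 5.35 CPM and the 2 CD8 markers, both called higher in KKO at 48 h, to 7.04 to 13.4 CPM. Among the KKO libraries 3 stood apart. Xist (76.2 and 105 CPM) and Y-linked transcripts (125 and 149 CPM in sum) were both present in replicate 1 of 24 h and replicate 3 of 48 h, here called the 2 mixed libraries. Replicate 2 at 48 h correlated with the other 2 of its group at Spearman's rho of 0.989 and 0.992 over genes, against 0.996 between those. It was the KKO library of 48 h with much Xist and few Y-linked transcripts (2.83 CPM in sum). Its B cell sum was the highest of its group (78.6 CPM, against 52.8 and 55.3 CPM). The part of either in its distance was not tested. Where leaving these libraries out ended a call named below for one of the 49 genes, that loss is stated. Calls of listed genes outside the 49 were not checked in this way. Over all tested genes, calls at 48 h in KKO against WT went from 1635 to 738 higher without the 2 mixed libraries. Lower calls went from 1574 to 648. These are bulk libraries, in which fewer cells of a type and less RNA per cell cannot be told apart.

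Transcripts of the 20S core stood at unlike levels even though a core holds its subunits in equal number. Divided by the length of the principal transcript in kilobases (kb), the 14 core genes ran in WT at 24 h from 60.2 CPM per kb for Psma3 to 305 CPM per kb for Psma7, a 5.06-fold spread. The median was 153 CPM per kb at 24 h and 148 CPM per kb at 48 h in WT, against 151 and 149 CPM per kb in KKO, and Psma3 and Psma7 stayed the lowest and highest in all 4 groups. The 17 subunits of the 19S particle spread less widely in WT at 24 h, from 63.4 CPM per kb for the ATPase gene Psmc6 to 184 CPM per kb for the lid subunit gene Psmd3, or 2.91-fold. These levels rest on 1 transcript length per gene and are descriptions.

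At 24 h the proteasome genes of KKO cells were near those of WT cells. Of the 49 genes 1 rose in KKO and 0 fell (edgeR quasi-likelihood test, Benjamini-Hochberg adjusted over 13196 genes, called at an adjusted p under 0.05), a share of 2.04%; over all tested genes 2.33% were called, 1.89% higher and 0.432% lower. The median log2 fold change of the 49 was 0.01, and 45 of them had a 95% interval lying wholly within 0.32 of no change on the log2 scale. None of the 14 core genes was called, and their log2 fold changes ran from -0.05 to 0.06, with a median of 0.00. The smallest p of the core at 24 h belonged to Psma3, an alpha ring gene, with a log2 fold change of 0.06 (adjusted p = 0.881).

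The gene that rose at 24 h was Psmd5, which encodes a chaperone that holds part of the 19S ATPase ring during assembly and leaves the finished particle. Psmd5 measured 49.3, 52.3 and 53.5 CPM in WT and 64.1, 57.2 and 64.1 CPM in KKO at 24 h. At 48 h Psmd5 measured 47.2, 46.3 and 50.3 CPM in WT and 61.5, 62.1 and 58.7 CPM in KKO. All KKO libraries lay above all WT libraries at both times. The rise was called at 24 h (log2 fold change 0.26, SE 0.06, adjusted p = 0.0323) and, at 1.27-fold, at 48 h (log2 fold change 0.34, SE 0.06, adjusted p = 0.00147). The 2 effects were not shown to differ (interaction 0.08, adjusted p = 0.591). The call at 48 h held in all 20 alternatives tried. That at 24 h was lost in 8 of 20, among them without the 2 mixed libraries (log2 fold change 0.23, adjusted p = 0.196) and with the replicate block (adjusted p = 0.0509). It was also lost on leaving out WT replicate 1 (adjusted p = 0.0946), 2 (0.0988) or 3 (0.0607) or KKO replicate 1 (0.11) or 3 (0.182). The other 19S chaperone genes, Psmd9 and Psmd10, were not called at either time, with log2 fold changes of 0.01 and -0.06 at 24 h and -0.03 and 0.17 at 48 h.

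At 48 h 4 of the 7 calls in KKO against WT were activator genes and 1 was an immunoproteasome gene, while the core and the ring of ATPases gave none. Of the 49 genes 2 rose (Psmd5 and Psme4) and 5 fell (Psmb9, Psme2, Psme2b, Psme3 and Psmc3ip), a share of 14.3%, against 24.3% of all tested genes, of which 12.4% were higher and 11.9% lower. The median log2 fold change of the 49 genes was -0.03, and 39 had a 95% interval within 0.32 of no change on that scale. In the 20S core 0 of 14 were called, with a median of 0.02 and a range of -0.08 to 0.15. In the 19S group Psmd5 rose, Psmc3ip fell and 19 of 21 were not called; the 6 ATPase genes Psmc1 to Psmc6 had a median of -0.10 and 3 of them an unadjusted p under 0.05. No assembly factor was called, the smallest p among them being that of Psmg2, an alpha ring chaperone gene (-0.13, adjusted p = 0.107).

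The count at 48 h depended on 1 library. Without KKO replicate 2 at 48 h, 1 gene was called higher and 14 lower, the 9 added being Psmb8, Psmb10, Psmc2, Psmc4, Psmc5, Psmd6, Psmd7, Psmd11 and Psmg2. In that replicate Psmd7, which encodes the partner of the 19S deubiquitinase, was at 234 CPM, above the 232, 223 and 203 CPM of WT at 48 h, while the other 2 KKO libraries were at 181 and 187 CPM. Without the 2 mixed libraries, 1 gene was called higher and 4 lower, Psme3 and Psme4 being lost.

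**Figure D1:**
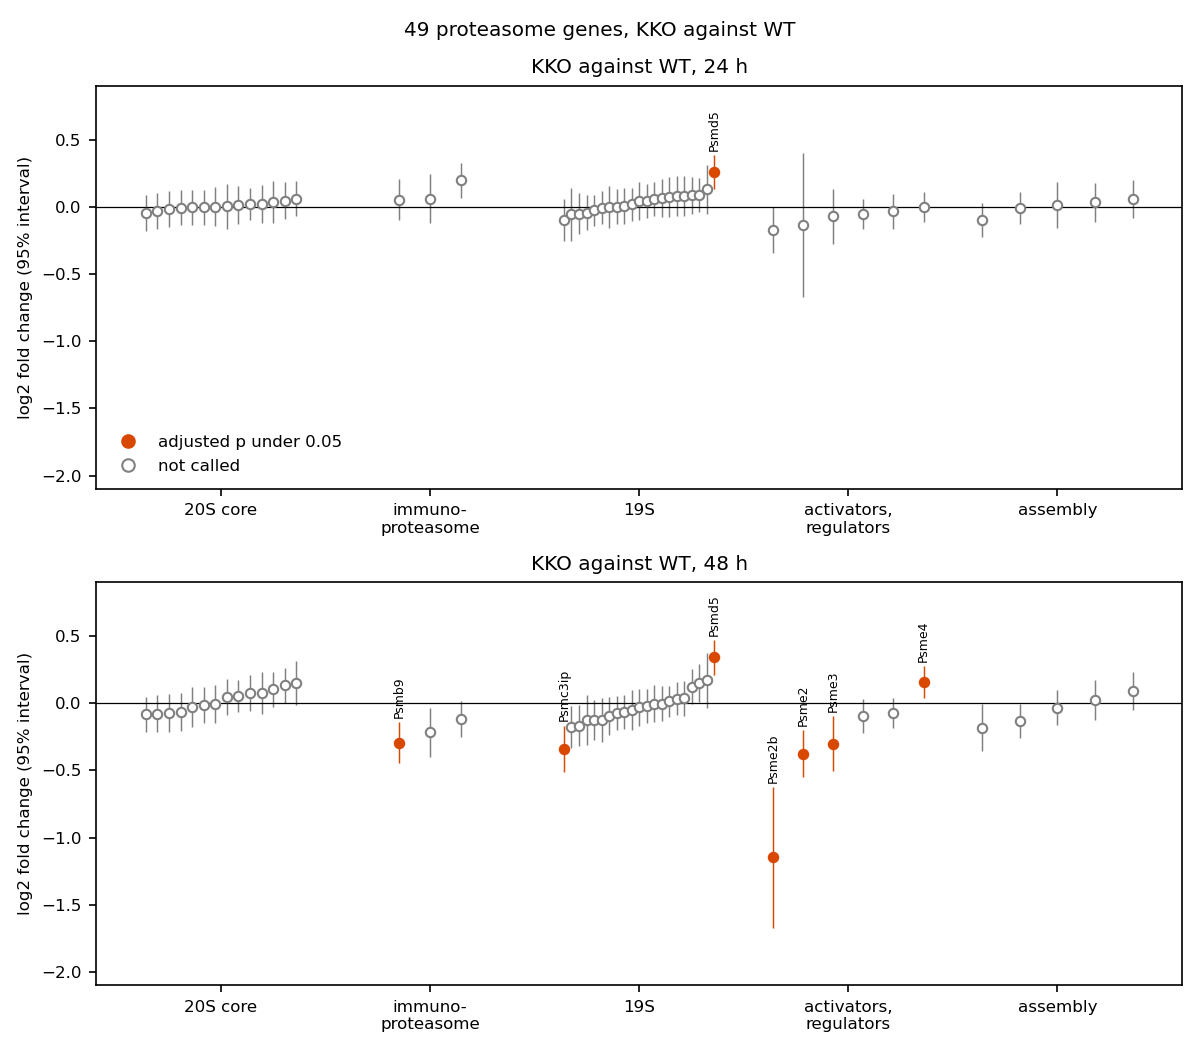
Log2 fold change of KKO against WT (vertical axis, points with 95% intervals) for the 49 proteasome genes at 24 h (top) and 48 h (bottom), by group along the horizontal axis and sorted within it; filled points passed an adjusted p of 0.05 and are named. At 24 h Psmd5 is the filled point, and at 48 h 7 points are filled, of which 4 are activator genes and 0 belong to the 20S core.

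Among the activators, Psme1 and Psme2 encode the alpha and beta subunits of the ring cap PA28, which opens the core without ATP and is known to be induced by interferon. The genes are neighbours on chromosome 14 (RefSeq annotation of GRCm38.p6), Psme1 at chr14:55578494-55581527 on the plus strand and Psme2 at chr14:55587440-55591101 on the minus strand, 5912 bases apart. Psme1 measured 342, 375 and 357 CPM in WT and 373, 333 and 342 CPM in KKO at 24 h. At 48 h Psme1 measured 361, 386 and 385 CPM in WT and 361, 354 and 346 CPM in KKO. The Psme1 libraries of KKO and WT overlapped at both times, and the gene was not called (-0.03 at 24 h and -0.09 at 48 h, adjusted p = 0.273). Psme2 measured 203, 239 and 204 CPM in WT and 205, 186 and 182 CPM in KKO at 24 h. At 48 h Psme2 measured 199, 221 and 205 CPM in WT and 159, 176 and 148 CPM in KKO. All 3 KKO libraries at 48 h lay below the WT ones, a fall of 1.30-fold (log2 fold change -0.37, SE 0.08, adjusted p = 0.00496), while at 24 h the groups overlapped and the gene was not called (adjusted p = 0.446). The fall at 48 h kept its call in all 20 alternatives, with log2 fold changes from -0.46 to -0.32. Interaction for Psme2 was -0.20 (adjusted p = 0.305), so the effects at the 2 times were not shown to differ, except without KKO replicate 2 at 48 h (adjusted p = 0.0481).

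Psme2b, at chr11:48945345-48946410, carries a near-identical copy of the Psme2 coding sequence, so the expected counts could share reads between them and its values are uncertain; it had 41 to 157 counts per library. Psme2b measured 2.46, 2.22 and 2.64 CPM in WT and 2.93, 1.81 and 1.87 CPM in KKO at 24 h. At 48 h Psme2b measured 4.08, 6.94 and 5.74 CPM in WT and 2.02, 2.32 and 3.24 CPM in KKO. The WT libraries at 48 h were the highest, and the KKO libraries at 48 h lay below all of them. At 48 h it was 2.21-fold lower in KKO (log2 fold change -1.15, SE 0.24, adjusted p = 0.00467). The interaction was -1.01 and did not pass the threshold (adjusted p = 0.108).

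Psme3 encodes the nuclear activator PA28 gamma, and Psme4 the large activator PA200. Psme3 measured 596, 640.1 and 633 CPM in WT and 605, 579.8 and 597 CPM in KKO at 24 h. At 48 h Psme3 measured 359.5, 318 and 307 CPM in WT and 234, 319 and 247 CPM in KKO. The groups overlapped at 48 h, KKO replicate 2 (318.5 CPM) lying among the WT ones and the other 2 below them, and the gene was called lower in KKO (log2 fold change -0.30, SE 0.10, adjusted p = 0.0361). That call was lost in 13 of 20 alternatives, among them without the 2 mixed libraries (log2 fold change -0.25, adjusted p = 0.176). Calls were lost too without WT replicate 1 at 48 h (-0.23, adjusted p = 0.171) or 2 (0.0812), without KKO replicate 1 at 48 h (-0.21, adjusted p = 0.179) or 3 (0.147), and without any single library of 24 h (adjusted p of 0.0507 to 0.0561). Without KKO replicate 2 the log2 fold change was -0.46 (adjusted p = 5.75e-05). Psme4 measured 102, 98.9 and 103 CPM in WT and 99.1, 96.1 and 96.8 CPM in KKO at 24 h. At 48 h Psme4 measured 98.6, 86.1 and 91.1 CPM in WT and 98.8, 104 and 105 CPM in KKO. The KKO libraries at 48 h lay just above the WT ones, and the rise of 1.12-fold was called (log2 fold change 0.16, SE 0.05, adjusted p = 0.0468). In 17 of 20 alternatives it was not, among them without the 2 mixed libraries (adjusted p = 0.168) and on leaving out any single library but WT replicate 1 at 48 h (adjusted p of 0.0607 to 0.216). Psmf1, which encodes a proteasome-binding regulator, was not called at either time (0.00 at 24 h and -0.07 at 48 h).

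**Figure D2:**
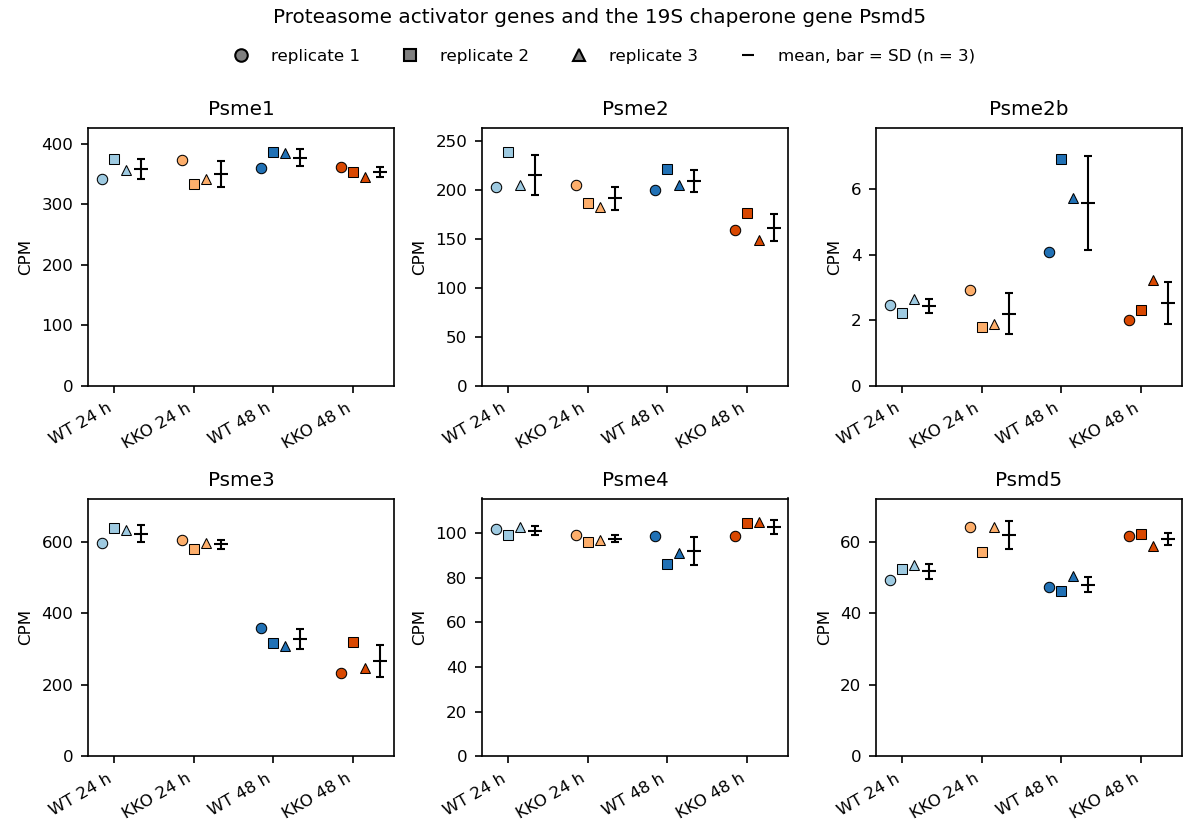
CPM (vertical axes, from 0) of 5 activator genes and Psmd5 in each library, by group along the horizontal axis; symbols give the replicate number, and the bar beside them the mean with SD (n = 3). Psme3 lies at 579.8 CPM or more in all 24 h libraries and at 359.5 CPM or less in all 48 h libraries, Psme2 is lowest in KKO at 48 h, and Psmd5 is higher in KKO at both times.

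Psmb8 and Psmb9 stand in the class II region of chromosome 17 beside the peptide transporter genes, Psmb9 at chr17:34182030-34187330 on the minus strand and Psmb8 at chr17:34198195-34201454 on the plus strand. Tap1 lies between them, 225 bases from Psmb9, and Tap2 lies 3024 bases beyond Psmb8, while Psmb10 is at chr8:105935728-105938392 on the minus strand. The 100 bases before each RefSeq start (GRCm38.p6, gene strand, 5′ to 3′) are shown because all 3 genes rose over time in both genotypes; neither motif searched in the wider windows (below) is in them, so no letter is in capitals.
Psmb8, chr17:34198095-34198194, plus strand: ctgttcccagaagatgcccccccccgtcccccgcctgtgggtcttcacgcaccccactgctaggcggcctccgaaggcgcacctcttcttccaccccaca
Psmb9, chr17:34187331-34187430, minus strand: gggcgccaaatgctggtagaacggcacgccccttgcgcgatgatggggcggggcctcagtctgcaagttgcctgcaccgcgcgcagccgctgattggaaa
Psmb10, chr8:105938393-105938492, minus strand: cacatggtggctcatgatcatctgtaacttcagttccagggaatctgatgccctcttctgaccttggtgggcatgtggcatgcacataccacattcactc

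Each immunoproteasome gene was set beside the constitutive gene whose product it replaces. Psmb5 encodes the chymotrypsin-like site and Psmb8 its replacement. Psmb5 measured 123, 141 and 139 CPM in WT and 143, 127 and 133 CPM in KKO at 24 h. At 48 h Psmb5 measured 123, 125 and 117 CPM in WT and 123, 125 and 110.4 CPM in KKO. Psmb8 measured 219.5, 244 and 234 CPM in WT and 283, 251 and 264 CPM in KKO at 24 h. At 48 h Psmb8 measured 390.3, 415 and 402 CPM in WT and 375, 384 and 355 CPM in KKO. Psmb5 libraries of the 2 genotypes overlapped at both times, while those of Psmb8 lay higher in KKO at 24 h and lower in KKO at 48 h without overlap. Neither Psmb8 difference was called in the fit of all libraries, with log2 fold changes of 0.20 at 24 h (95% interval 0.06 to 0.33, adjusted p = 0.148) and -0.12 at 48 h (-0.25 to 0.01, adjusted p = 0.179). With KKO replicate 2 at 48 h left out, Psmb8 was called higher in KKO at 24 h (adjusted p = 0.0422) and lower at 48 h (log2 fold change -0.16, adjusted p = 0.0413). In the fit of the 6 libraries of 24 h alone Psmb8 was also called higher in KKO (adjusted p = 0.0376). For Psmb5 the log2 fold changes were -0.00 and -0.03.

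Psmb6 encodes the caspase-like site and Psmb9 its replacement, which prefers to cut after hydrophobic residues. Psmb6 measured 194, 218 and 222 CPM in WT and 219, 200.5 and 207 CPM in KKO at 24 h. At 48 h Psmb6 measured 199, 194 and 202 CPM in WT and 188, 197 and 178 CPM in KKO. Psmb9 measured 75.9, 84.1 and 82.0 CPM in WT and 90.7, 78.6 and 81.4 CPM in KKO at 24 h. At 48 h Psmb9 measured 132, 149 and 145 CPM in WT and 111, 126 and 111 CPM in KKO. At 48 h all KKO libraries of Psmb9 lay below all WT libraries, a fall of 1.22-fold (log2 fold change -0.29, SE 0.07, adjusted p = 0.00993), and at 24 h they overlapped (0.05). The call at 48 h was lost without KKO replicate 1 at 48 h (adjusted p = 0.0565) or replicate 3 (adjusted p = 0.0516) and kept without the 2 mixed libraries (-0.26, adjusted p = 0.0474). Psmb6 was not called (-0.02 and -0.08).

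Psmb7 encodes the trypsin-like site and Psmb10 its replacement. Psmb7 measured 141, 161 and 159.9 CPM in WT and 170.0, 145 and 159.9 CPM in KKO at 24 h. At 48 h Psmb7 measured 163, 163 and 166 CPM in WT and 173, 186 and 161 CPM in KKO. Psmb10 measured 37.5, 41.2 and 37.4 CPM in WT and 44.1, 36.3 and 40.6 CPM in KKO at 24 h. At 48 h Psmb10 measured 63.9, 65.2 and 59.6 CPM in WT and 50.4, 61.7 and 50.5 CPM in KKO. Groups overlapped for both genes at both times, by 1 KKO library of Psmb10 (61.7 CPM, replicate 2) at 48 h. Psmb10 was not called at 48 h (-0.22, adjusted p = 0.0787) unless that replicate was left out (-0.33, adjusted p = 0.0019). Psmb7 had log2 fold changes of 0.04 and 0.08 and was not called.

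**Figure D3:**
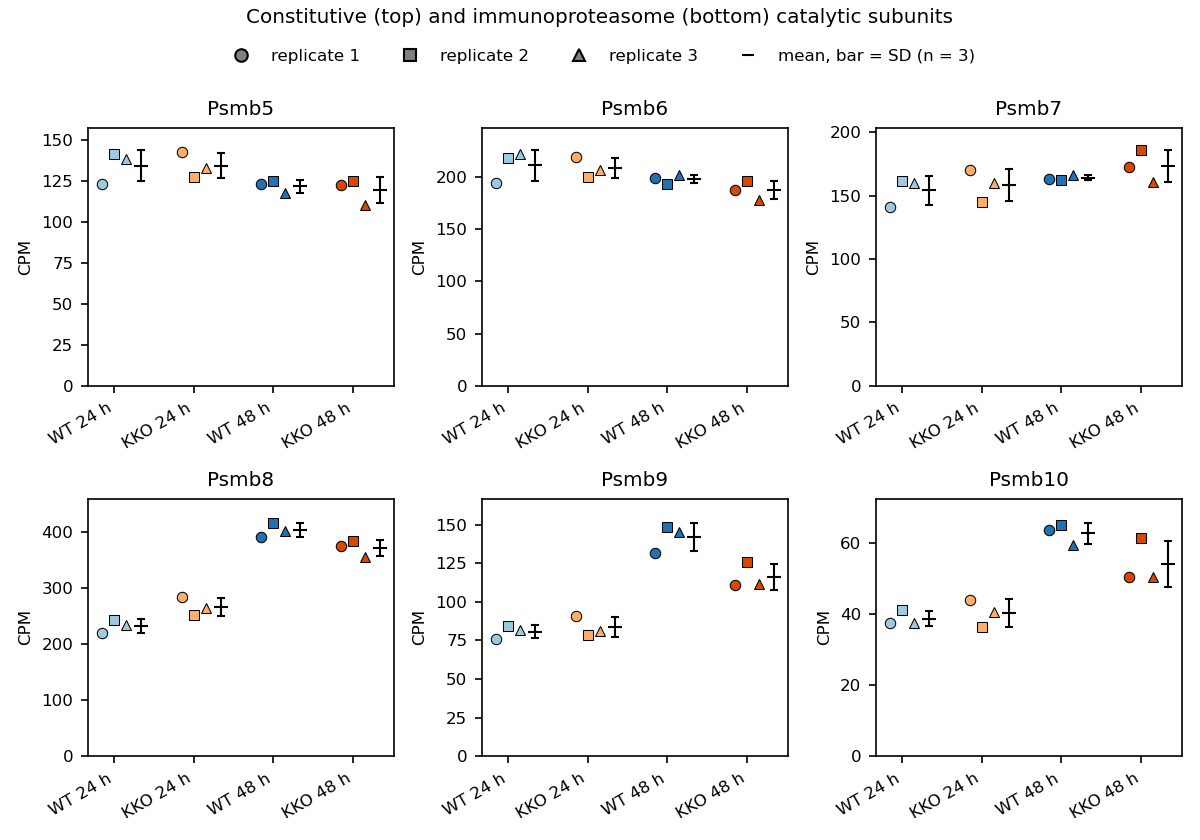
CPM (vertical axes, from 0) of the constitutive catalytic genes Psmb5, Psmb6 and Psmb7 (top) and of the immunoproteasome genes that replace them, Psmb8, Psmb9 and Psmb10 (bottom), in each library by group; symbols give the replicate number, and the bar the mean with SD (n = 3). The bottom panels step up between 24 h and 48 h in both genotypes with no overlap, while of the top genes Psmb5 and Psmb6 were called lower over time in KKO and none was called in WT.

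As a single measure, the summed CPM per kb of Psmb8, Psmb9 and Psmb10 was taken as a percent of that of all 6 catalytic genes, and given as a description without a test. It was 30.4, 29.9 and 29.0% in WT and 32.1, 31.7 and 31.8% in KKO at 24 h, and 42.3, 44.3 and 43.2% in WT and 40.2, 40.8 and 41.1% in KKO at 48 h. The mean was 29.8 ± 0.72% and 31.9 ± 0.235% (SD, n = 3) at 24 h in WT and KKO, and 43.2 ± 1.02% and 40.7 ± 0.46% (SD, n = 3) at 48 h. KKO libraries thus lay above WT libraries at 24 h and below them at 48 h, without overlap, and all 48 h libraries lay above all 24 h libraries. The immunoproteasome sum went from 232 ± 11.8 to 400.2 ± 14.6 CPM per kb (SD, n = 3) in WT, while the constitutive sum went from 547 ± 38.8 to 525 ± 3.02. Psmb8 was the highest of the 3, the ratio of Psmb8 to its partner Psmb5 per kb being 0.956 in WT at 24 h and 1.83 at 48 h, against 0.225 and 0.423 for Psmb9 to Psmb6 and 0.223 and 0.339 for Psmb10 to Psmb7.

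The difference between the KKO effects at 48 h and 24 h (interaction) was called for 0 of 49 genes by edgeR, with 7 at an unadjusted p under 0.05 (Psmb8, Psmb9, Psmb10, Psmc3ip, Psmc5, Psme2b and Psme4), while 4.18% of all genes were called. DESeq2 called 2 of the 49, Psmb8 and Psmb9, and 8.82% of the 11941 genes to which it gave an adjusted p. The 3 immunoproteasome genes had the interactions -0.31 (Psmb8, adjusted p = 0.0557), -0.34 (Psmb9, adjusted p = 0.0669) and -0.28 (Psmb10, adjusted p = 0.196), all toward lower in KKO at 48 h. With DESeq2 the adjusted p was 0.012 for Psmb8 and 0.0431 for Psmb9. With the replicate block, which joins same-numbered libraries, it was 0.0482 for Psmb8. Some same-numbered KKO libraries differed in sex-linked transcripts between the times, so that block may join unrelated libraries. Without the 2 mixed libraries the 3 interactions were -0.24, -0.25 and -0.16 (adjusted p = 0.258, 0.279 and 0.555). Without KKO replicate 2 at 48 h, 13 of the 49 were called, all toward lower, namely these 3, Psmc2, Psmc3, Psmc4, Psmc5, Psmc3ip, Psmd1, Psmd7, Psmd11, Psme2 and Psme3. The median interaction over the 14 core genes was 0.03.

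Genes known as regulators of the immunoproteasome genes were lower in KKO at 48 h. The list held 6 regulators, among them the transcription factor Irf1 and the class I coactivator Nlrc5. It was written with earlier results of these data known. None of the 6 was called at 24 h by edgeR (2 at an unadjusted p under 0.05). All 6 fell in KKO at 48 h, with a median log2 fold change of -0.49, where 11.9% of all tested genes were called lower. Nlrc5 had the largest fall at 48 h, from a mean of 132 CPM in WT to 71.7 CPM in KKO (-0.88, adjusted p = 0.000113), and Irf1 fell by 0.71 on the log2 scale (adjusted p = 0.000163). The interaction was called for all 6, among them Nlrc5 (-0.77, adjusted p = 0.0141) and Stat2 (-0.69, adjusted p = 0.014), against 4.18% of all tested genes. These calls were not checked without the 2 mixed libraries, where lower interactions over all tested genes went from 359 to 44. Of the 10 genes of peptide handling, 0 were called at 24 h and 6 fell at 48 h, among them Tapbp, which bridges the transporter to class I molecules (-0.95, adjusted p = 4e-05), and the transporter gene Tap1, the neighbour of Psmb9 (-0.43, adjusted p = 0.000197).

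Beside these values stand 10 interferon response genes, whose CPM summed at 24 h to 1269.8, 1284 and 1284 (WT) and 1304, 1152 and 1194 (KKO), and at 48 h to 1215, 1363 and 1285 (WT) and 751, 869 and 781 (KKO). All KKO libraries at 48 h lay below all others. In KKO against WT 10 of 10 genes fell at 48 h, where 11.9% of all tested genes were called lower, and 0 of 10 were called at 24 h. This list too was chosen with earlier results of these data known. The B cell markers were higher in KKO at both times, as given above. The part of either in the proteasome values was not tested.

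**Figure D4:**
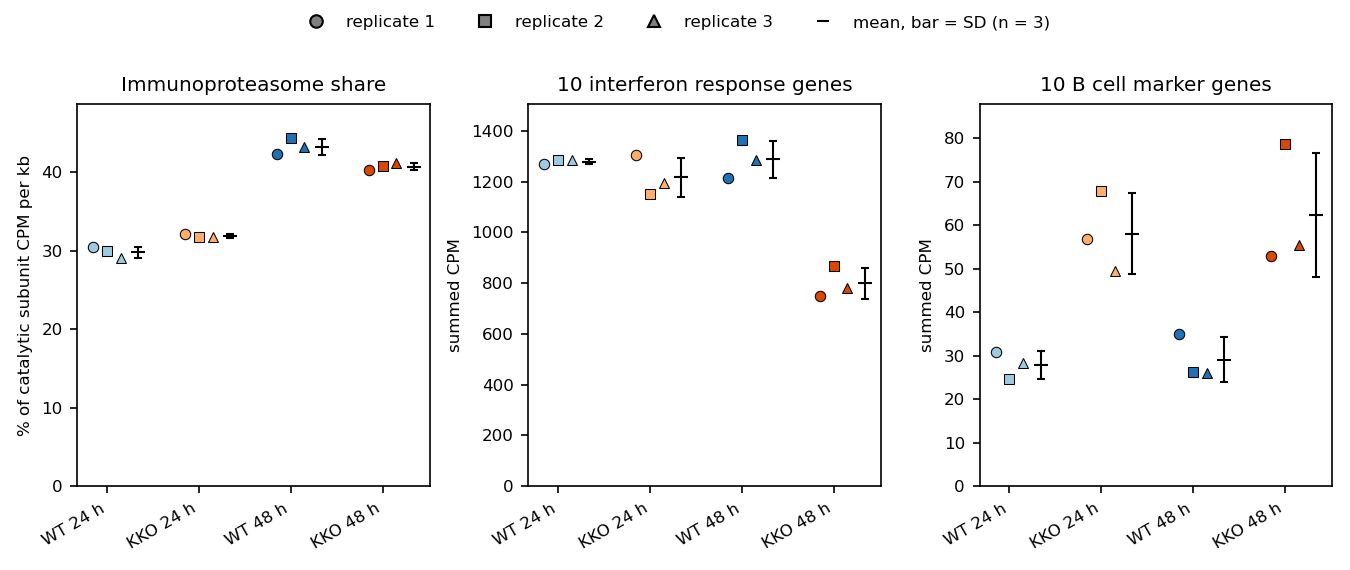
Immunoproteasome share of catalytic subunit CPM per kb in percent (left), summed CPM of 10 interferon response genes (middle) and summed CPM of 10 B cell markers (right), with vertical axes from 0, in each library by group; symbols give the replicate number, and the bar the mean with SD (n = 3). The share is 32.1% or less in all 24 h libraries and 40.2% or more in all 48 h libraries, and KKO at 48 h is the group with the lowest interferon sum.

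Between 24 h and 48 h of activation the proteasome genes did not all move one way: the immunoproteasome genes rose, and most genes of the 19S group and the assembly factors fell. In WT 6 of the 49 genes rose and 24 fell, a share of 61.2%, next to 60.8% of all genes (31% higher and 29.7% lower). In KKO 8 rose and 28 fell, or 73.5%, next to 67.8% of all genes (34.4% higher and 33.4% lower). The share of calls in both directions together was thus near that of all genes. Falls outnumbered rises among the 49 in both genotypes, and did not among all genes. The median log2 fold change of the 49 was -0.14 in WT and -0.19 in KKO, and that of all genes was 0.00 in both. The 2 time effects share no library: 5 genes rose in both genotypes (83.3% of those of WT and 62.5% of those of KKO), 22 fell in both (91.7% and 78.6%), and 0 went opposite ways. Over all tested genes the shares were of like size: 86.1% of the rises in WT and 77.6% of those in KKO were shared, and 87.8% and 78.2% of the falls.

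The immunoproteasome genes rose in both genotypes, 3 of 3. Psmb9 rose 1.76-fold in WT (log2 fold change 0.81, SE 0.07, adjusted p = 2.43e-07) and 1.39-fold in KKO (log2 fold change 0.47, SE 0.07, adjusted p = 3.58e-05). The rise of Psmb8 was 1.73-fold in WT (log2 fold change 0.79, SE 0.06, adjusted p = 7.77e-08) and 1.39-fold in KKO (log2 fold change 0.48, SE 0.06, adjusted p = 7.23e-06), and that of Psmb10 1.62-fold (log2 fold change 0.70, SE 0.09, adjusted p = 6.68e-06) and 1.34-fold (log2 fold change 0.42, SE 0.09, adjusted p = 0.000502). No 48 h library overlapped a 24 h library of the same genotype for any of the 3, and the calls held in all alternatives. The interaction given above is the test of the gap between the genotypes. Of the constitutive partners none was called in WT, and in KKO Psmb5 (-0.17, adjusted p = 0.0377) and Psmb6 (-0.15, adjusted p = 0.0442) fell. Both falls were lost without the 2 mixed libraries (-0.07, adjusted p = 0.44, and -0.08, adjusted p = 0.388) and on leaving out KKO replicate 1 at 24 h (0.117 and 0.12), replicate 3 at 24 h (0.0624 and 0.0711) or replicate 3 at 48 h (0.168 and 0.163), and that of Psmb6 also without replicate 1 at 48 h (0.0926). Psmb5 was called lower in WT too without WT replicate 1 at 24 h (adjusted p = 0.0301) or KKO replicate 2 at 48 h (0.048). Of the other genes that rose in both genotypes, Psmb1 encodes a beta ring subunit without a cutting site. Psmb1 measured 131, 146 and 147 CPM in WT and 153, 129.7 and 140.2 CPM in KKO at 24 h. At 48 h Psmb1 measured 170.5, 179.8 and 199 CPM in WT and 216, 201 and 193 CPM in KKO. All libraries of 48 h lay above those of 24 h, by 0.38 in WT (adjusted p = 0.00063) and 0.53 in KKO (adjusted p = 2.41e-05) on the log2 scale.

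In the fit of all libraries the core gave fewer calls in WT than in KKO, a difference that was not tested. Without the 2 mixed libraries Psma1, Psma5, Psma7, Psmb5 and Psmb6 lost their KKO calls and Psmb7 gained a call. Psma1 (adjusted p = 0.0386) also lost it without KKO replicate 1 or 3 at either time (0.101 to 0.123). The KKO rise of Psmb4 (adjusted p = 0.0466) was lost without any single WT library. It was also lost without KKO replicate 2 or 3 at 24 h, or 1 or 2 at 48 h (0.0509 to 0.145 in all). In WT 1 of the 14 core genes rose, 3 fell and 10 were not called, with a median of -0.04, and in KKO 3 rose, 5 fell and 6 were not called, with a median of -0.07. The genes that fell in WT were the alpha ring genes Psma5, Psma6 and Psma7. Psma5 measured 120.4, 123 and 125 CPM in WT and 132, 117 and 125 CPM in KKO at 24 h. At 48 h Psma5 measured 109, 99.8 and 105 CPM in WT and 106, 111 and 108 CPM in KKO. Psma6 measured 151, 171 and 168 CPM in WT and 162, 151 and 161 CPM in KKO at 24 h. At 48 h Psma6 measured 138, 149.6 and 145 CPM in WT and 148, 146 and 135 CPM in KKO. Psma7 measured 270.1, 286 and 279 CPM in WT and 288, 265 and 279 CPM in KKO at 24 h. At 48 h Psma7 measured 244, 260.0 and 245 CPM in WT and 239, 248 and 219.8 CPM in KKO. For Psma5 and Psma7 the 48 h libraries lay below the 24 h libraries in both genotypes, and both genes fell in KKO too. Psma5 fell by 0.24 on the log2 scale in WT (adjusted p = 0.00187) and Psma7 by 0.24 in KKO (adjusted p = 0.00285). Without the 2 mixed libraries the falls in KKO were not called for Psma5 (-0.16, adjusted p = 0.0592) or Psma7 (-0.16, adjusted p = 0.0679). In WT Psma7 was at -0.16 (adjusted p = 0.0332), a call lost on leaving out WT replicate 2 (adjusted p = 0.11) or 3 (0.0774) at 24 h or replicate 1 (0.0967) or 3 (0.107) at 48 h. Psma6 fell by 0.18 in WT (adjusted p = 0.0226) and was not called in KKO (-0.15, adjusted p = 0.0513). Its call in WT was lost on leaving out WT replicate 2 (adjusted p = 0.0972) or 3 (0.0779) at 24 h or replicate 1 (0.0842) or 3 (0.0511) at 48 h. In KKO Psma6 was called lower with no low-count filter (adjusted p = 0.0224) and with the replicate block (0.0456). It was also called there without KKO replicate 2 at 24 h (0.0489) or 48 h (0.0206). The same held without WT replicate 1 (0.0314) or 2 (0.0481) at 24 h or WT replicate 1 at 48 h (0.0441). Psma3 measured 166, 168 and 179 CPM in WT and 185, 163 and 187 CPM in KKO at 24 h. At 48 h Psma3 measured 158, 165 and 164 CPM in WT and 180.1, 181 and 172 CPM in KKO. Psma3 was not called over time (-0.08 in WT and -0.01 in KKO).

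In the 19S group 15 of 21 genes fell in WT, 1 rose and 5 were not called, with a median log2 fold change of -0.23. In KKO 16 fell, 2 rose and 3 were not called, with a median of -0.31. The shares called were 76.2% in WT and 85.7% in KKO, next to 60.8% and 67.8% of all genes. Of all genes 29.7% and 33.4% were called lower. Among the ATPase genes 5 of 6 fell in both genotypes, the sixth being Psmc6 (0.07 in WT, not called, and 0.18 in KKO, called higher, but not without KKO replicate 2 at 24 h, adjusted p = 0.0917, or replicate 1 at 48 h, 0.0847). Psmc4, an ATPase gene, and Psmd7, a lid gene, fell furthest of the particle subunits in both. Psmc4 measured 219, 229.7 and 228 CPM in WT and 241, 217 and 220.0 CPM in KKO at 24 h. At 48 h Psmc4 measured 181, 171 and 166 CPM in WT and 149, 171 and 139 CPM in KKO. Psmd7 measured 277, 300.4 and 293 CPM in WT and 333, 302 and 317 CPM in KKO at 24 h. At 48 h Psmd7 measured 232, 223 and 203 CPM in WT and 181, 234 and 187 CPM in KKO. The 48 h libraries lay below the 24 h libraries for both genes and in both genotypes. Psmd7 fell 1.32-fold in WT (log2 fold change -0.41, SE 0.09, adjusted p = 0.000902) and 1.58-fold in KKO (log2 fold change -0.66, SE 0.09, adjusted p = 8.66e-06), and Psmc4 1.31-fold in WT (log2 fold change -0.39, SE 0.07, adjusted p = 0.000319) and 1.48-fold in KKO (log2 fold change -0.56, SE 0.07, adjusted p = 7.88e-06). The subunit gene that rose in both was Psmd8, a lid gene (0.16 in WT, adjusted p = 0.0382, and 0.32 in KKO, adjusted p = 0.000259). Its call in WT was lost with no low-count filter (adjusted p = 0.113) and on leaving out WT replicate 1 (0.0993) or KKO replicate 3 (0.0571) at 24 h, or WT replicate 3 (0.0745) or KKO replicate 3 (0.0515) at 48 h. The scaffold genes of the base, Psmd1 and Psmd2, fell by 0.36 and 0.35 in WT and by 0.50 and 0.31 in KKO, on the log2 scale. The ubiquitin receptor gene Psmd4 was not called in either (0.00 and 0.05), and the deubiquitinase gene Psmd14 was called in KKO (-0.19, adjusted p = 0.0117) and not in WT (-0.10, adjusted p = 0.171), with an interaction of -0.09 (adjusted p = 0.556). The call of Psmd14 in KKO was lost without KKO replicate 3 at 48 h (adjusted p = 0.0544) and without the 2 mixed libraries (-0.11, adjusted p = 0.185). Without these 2 libraries 18 members fell in KKO in place of 28, the lost ones being Psma1, Psma5, Psma7, Psmb5, Psmb6, Psmd9, Psmd13, Psmd14, Psme2 and Psmg1.

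Psmc3ip, which is no subunit, had the largest fall of the symbols in the 19S group. Psmc3ip measured 29.9, 30.04 and 27.7 CPM in WT and 29.7, 27.2 and 27.7 CPM in KKO at 24 h. At 48 h Psmc3ip measured 13.7, 15.3 and 14.5 CPM in WT and 11.1, 12.2 and 11.2 CPM in KKO. It fell 2.02-fold in WT (log2 fold change -1.01, SE 0.08, adjusted p = 4.66e-08) and 2.46-fold in KKO (log2 fold change -1.30, SE 0.08, adjusted p = 4.7e-09) over time, and was lower in KKO than in WT at 48 h without overlap (log2 fold change -0.34, SE 0.08, adjusted p = 0.0085), a call that was lost in the fit of the 6 libraries of 48 h alone (adjusted p = 0.0546).

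**Figure D5:**
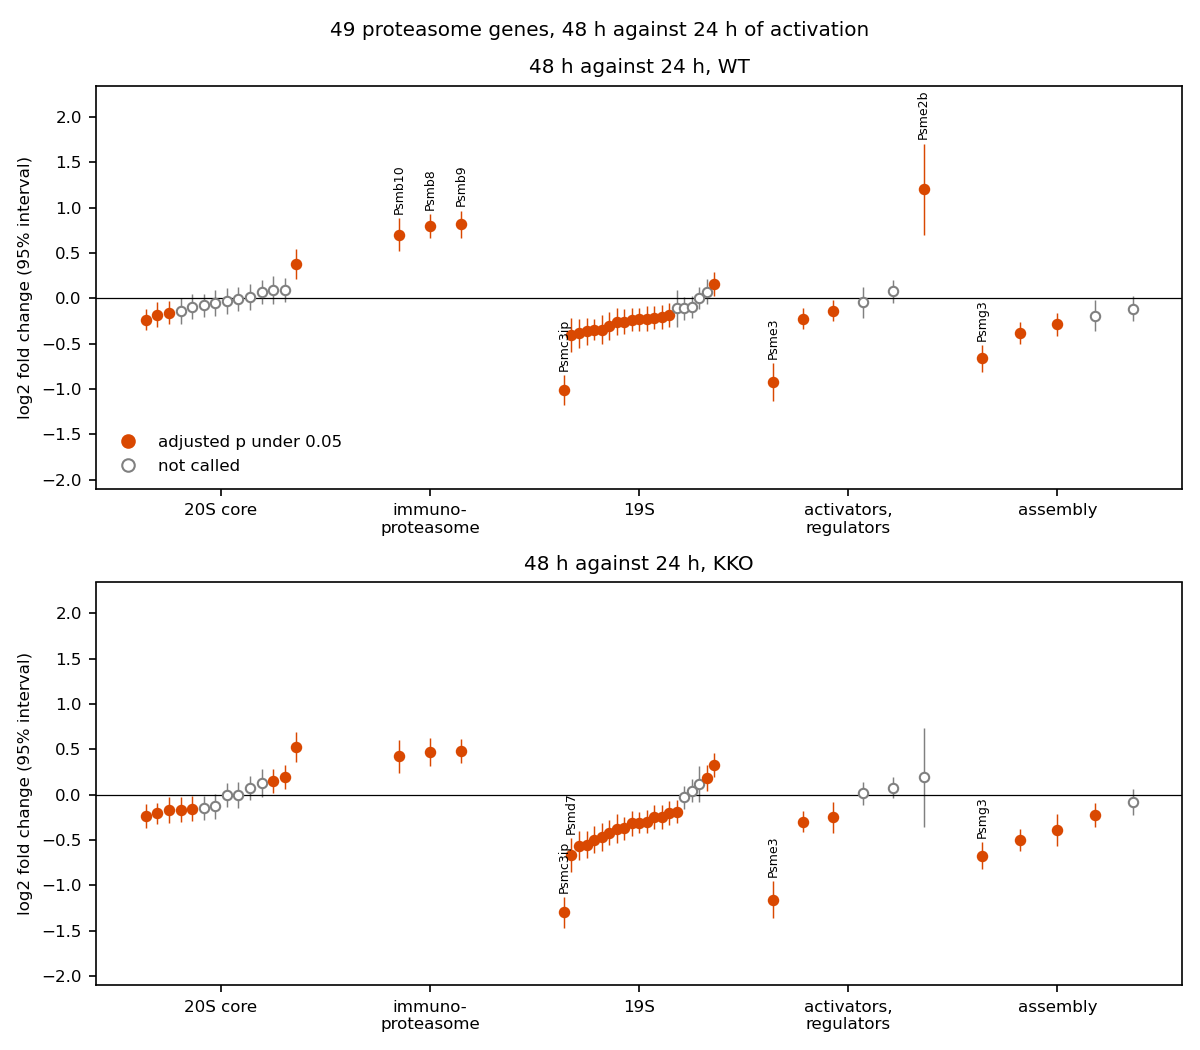
Log2 fold change of 48 h against 24 h (vertical axis, points with 95% intervals) for the 49 proteasome genes in WT (top) and KKO (bottom), by group along the horizontal axis and sorted within it; filled points passed an adjusted p of 0.05, and those past 0.6 either way are named. The 3 immunoproteasome genes lie above 0 in both panels, while 15 (WT) and 16 (KKO) of the 21 genes of the 19S group are filled below 0.

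Of the activators, Psme3 fell furthest over time, 1.90-fold in WT (log2 fold change -0.92, SE 0.10, adjusted p = 1.6e-06) and 2.23-fold in KKO (log2 fold change -1.16, SE 0.10, adjusted p = 1.35e-07), with no overlap of 24 h and 48 h libraries. Psme1 was not called in either genotype (0.08 and 0.02). Psme2 was not called in WT (-0.05) and fell in KKO (log2 fold change -0.25, SE 0.08, adjusted p = 0.0135), a call lost without the 2 mixed libraries (-0.14, adjusted p = 0.223), and without either alone, KKO replicate 1 at 24 h (adjusted p = 0.0609) or KKO replicate 3 at 48 h (0.0714). Psme2b rose 2.30-fold in WT (log2 fold change 1.201, SE 0.24, adjusted p = 0.000474) and was not called in KKO (0.19, adjusted p = 0.528). Psmf1 measured 64.8, 63.6 and 68.6 CPM in WT and 68.1, 62.7 and 66.3 CPM in KKO at 24 h. At 48 h Psmf1 measured 58.3, 55.3 and 55.1 CPM in WT and 54.7, 52.6 and 53.0 CPM in KKO. Its 48 h libraries were below those of 24 h in both genotypes (-0.22 in WT, adjusted p = 0.00178, and -0.30 in KKO, adjusted p = 0.000147). Psme4 was called lower in WT (-0.14, adjusted p = 0.0395), a call lost in 12 of 20 alternatives, among them with the replicate block (adjusted p = 0.0541) and without any single library of 24 h or WT replicate 2 or 3 at 48 h (adjusted p of 0.0538 to 0.218).

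Of the assembly factors, 3 of 5 fell over time in WT and 4 of 5 in KKO, with medians of -0.29 and -0.39. Psmg1 to Psmg4 encode chaperones that build the alpha ring in pairs, and Pomp the factor that joins the rings of a core and is then degraded by it. Psmg3 measured 37.4, 39.9 and 41.6 CPM in WT and 41.7, 38.7 and 41.1 CPM in KKO at 24 h. At 48 h Psmg3 measured 25.7, 25.7 and 23.6 CPM in WT and 26.4, 26.1 and 23.9 CPM in KKO. Psmg2 measured 52.8, 55.3 and 55.2 CPM in WT and 55.5, 51.1 and 55.2 CPM in KKO at 24 h. At 48 h Psmg2 measured 40.7, 43.1 and 41.4 CPM in WT and 36.8, 40.3 and 37.1 CPM in KKO. Both genes fell in both genotypes without overlap of the times: Psmg3 fell 1.58-fold in WT (log2 fold change -0.66, SE 0.07, adjusted p = 1.22e-06) and 1.59-fold in KKO (log2 fold change -0.67, SE 0.07, adjusted p = 7.29e-07), and Psmg2 1.30-fold (log2 fold change -0.38, SE 0.06, adjusted p = 3.94e-05) and 1.42-fold (log2 fold change -0.50, SE 0.06, adjusted p = 2.09e-06). Psmg1 measured 58.0, 64.5 and 63.4 CPM in WT and 61.4, 55.7 and 56.5 CPM in KKO at 24 h. At 48 h Psmg1 measured 51.6, 51.4 and 49.2 CPM in WT and 50.9, 50.9 and 47.0 CPM in KKO. Psmg4 measured 24.5, 27.2 and 25.3 CPM in WT and 28.2, 23.8 and 25.7 CPM in KKO at 24 h. At 48 h Psmg4 measured 22.0, 21.6 and 23.7 CPM in WT and 21.1, 19.3 and 18.9 CPM in KKO. Psmg1 fell in both genotypes (-0.29 in WT and -0.22 in KKO), and Psmg4 in KKO (-0.39, adjusted p = 0.000647) but not in WT (-0.19, adjusted p = 0.0502). With the replicate block Psmg4 was called lower in WT as well (adjusted p = 0.0383), as in 8 other alternatives, among them without the 2 mixed libraries (0.0491), WT replicate 1 at 24 h (0.0454) or replicate 3 at 48 h (0.0361), or KKO replicate 1 (0.0417) or 2 (0.0401) at 24 h or 2 at 48 h (0.0393). The fall of Psmg1 in KKO was not called without the 2 mixed libraries (-0.14, adjusted p = 0.0998). Pomp measured 145, 157 and 155 CPM in WT and 169.8, 148 and 158 CPM in KKO at 24 h. At 48 h Pomp measured 133, 143 and 146 CPM in WT and 154, 156 and 140.5 CPM in KKO. Pomp was called in neither genotype (-0.12 in WT and -0.08 in KKO), nor in KKO against WT (0.06 at 24 h and 0.09 at 48 h).

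Since NRF2 binds the antioxidant response element, its core TGACNNNGC was sought on both strands of the RefSeq promoter windows (250 bases before to 50 after a start, GRCm38.p6), of which 46 belonged to 43 of the 51 genes. It was in 6 of the 46 windows (13.0%), against 12.4% of 32851 windows of all genes. Its first letters are shared with the AP-1 and cyclic AMP elements, so a match can belong to either. The 30-base stretches around the 6 matches are shown to set the letters beside the fold changes; they are on the gene's strand, 5′ to 3′, with the core in capitals, and in Psme4, Psmd12 and Psmc6 the core lies on the opposite strand, so the capitals are its reverse complement.
Psmb5, chr14:54618023-54618052, minus strand: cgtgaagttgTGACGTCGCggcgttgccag
Psmb6, chr11:70525338-70525367, plus strand: ctaaagagagTGACGGAGCgctttacgacg
Psmc6, chr14:45329587-45329616, plus strand: ccagccagtaGCTAAGTCAggcattgctca
Psmd9, chr5:123228149-123228178, plus strand: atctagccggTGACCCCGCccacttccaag
Psmd12, chr11:107479278-107479307, plus strand: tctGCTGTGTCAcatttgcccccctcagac
Psme4, chr11:30771758-30771787, plus strand: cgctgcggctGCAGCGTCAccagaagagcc
At 24 h none of these 6 genes was called, with log2 fold changes of -0.00 (Psmb5), -0.02 (Psmb6), 0.04 (Psmc6), 0.01 (Psmd9), 0.06 (Psmd12) and -0.05 (Psme4), and at 48 h Psme4 was. No match to these letters was found for Psmd5, the gene that was higher in KKO at both times. As 43 of the 51 genes had a window, a lack of matches can also mean that no window was searched. The core of the interferon-stimulated response element, GAAANNGAA, was in 8 of the 46 windows (17.4%, against 8.56% of all windows), those of Psmb3, Psmb4, Psmc2, Psmd4, Psmd9, Psme1, Psmg4 and Pomp, and in 0 of the 3 immunoproteasome windows. None of these 8 genes was called at either time in KKO against WT.

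The genes around the proteasome were followed through lists written from textbook knowledge, with earlier results of these data known. Calls of these listed genes come from the fit of all 12 libraries and were not checked in the alternatives. Of 9 factors that bind the proteasome outside the symbol rule, 0 were called at 24 h (0 at an unadjusted p under 0.05) and 1 fell at 48 h, the ubiquitin ligase gene Ube3c (-0.20, adjusted p = 0.0416). Over time 2 rose and 4 fell in WT. The largest rise was that of Akirin2, which brings proteasomes into the nucleus (0.74, adjusted p = 3.75e-07), and the largest fall that of Uchl5, a deubiquitinase gene of the cap (-0.47, adjusted p = 8.8e-05); in KKO 2 rose and 5 fell. In the list of 10 genes that control transcription of proteasome genes, 1 rose and 1 fell at 24 h, Mafg, a partner of NRF2 (0.44, adjusted p = 0.00789), and Keap1 itself. At 48 h 3 fell, Keap1, Ddi2, the protease gene that activates NRF1 (-0.28, adjusted p = 0.0234), and Nfe2l1 (-0.18, adjusted p = 0.0416). Nfe2l2, which encodes NRF2, was not called (-0.01 and 0.03). Over time 3 of this list rose and 4 fell in WT, and 4 rose and 3 fell in KKO, Ddi2 having the largest fall (-0.79 in WT and -0.99 in KKO).

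Of 13 genes of ubiquitin, its activating enzymes and shuttle proteins, 0 were called at 24 h (1 at an unadjusted p under 0.05). At 48 h 2 rose, the shuttle and autophagy receptor gene Sqstm1 (0.52, adjusted p = 0.000169) and the activating enzyme gene Uba1 (0.28, adjusted p = 0.00398), and 3 fell, among them the shuttle gene Ubqln4 (-0.33, adjusted p = 0.0159) and Ddi2. Over time 5 rose and 7 fell in WT and 4 rose and 7 fell in KKO, Sqstm1 having the largest rise (0.60 in WT and 0.87 in KKO). Interactions were called for 0 of these 13, 0 of the 10 transcription genes and 0 of the 9 bound factors (5, 2 and 3 at an unadjusted p under 0.05). Of the regulators, 3 rose and 1 fell over time in WT and 2 rose and 3 fell in KKO. Of the peptide handling genes 5 rose and 4 fell in WT and 3 rose and 6 fell in KKO, and the interaction was called for Tap1, Tap2 and Tapbp, all toward lower in KKO at 48 h (-0.38, -0.53 and -0.79).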

How the data were processed

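RNA of 12 libraries of activated mouse CD4+ T cells was sequenced in pairs of reads. Per the submitters' processing notes, the authors checked reads with FastQC and counted genes with RSEM on mm10, a mouse build; a human reference is named in the design text, while organism and symbols are mouse. No source used here gives versions or annotation. The deposited values are expected counts, unnormalised, which share a read among the genes it fits, so near-identical genes such as Psme2 and Psme2b are uncertain. Another 6 columns of the table were not used, as no sample label describes them.

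Expected counts were rounded. The edgeR 4.0.16 quasi-likelihood test (R 4.3.3, robust, TMM, filterByExpr) was fitted to all 12 libraries with a mean for each group, leaving 8 residual degrees of freedom, and p-values (2-sided) were adjusted by Benjamini-Hochberg over 13196 genes. CPM used TMM-scaled totals. SE is the log2 fold change over the root of F, with 95% intervals from it. The code was checked on simulated counts. Replicates of a group differed beyond counting noise (chi-square over degrees of freedom 5.83 to 23.6). Lengths came from the GENCODE M21 principal transcripts, and positions and promoter windows from RefSeq GRCm38.p6, which is mm10. Of the 51 genes, all had a position and 43 a window. Protein sequences were not used here.

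The members, gene lists and alternatives were chosen with earlier results of these data known. Named with all values are the catalytic pairs, Psme1 to Psme4, Pomp and, per comparison and group, up to 3 called genes with the largest change or that with the smallest p; from each list, up to 4 called genes. Sem1 and Ecpas were matched by the older symbols Shfm1 and AI314180, and Paaf1 was not matched. Some listed genes count in the lists but are not reported here singly. Deviations of same-numbered libraries correlated across time at 0.126, 0.103 and 0.343 in WT and at 0.0287, 0.0852 and 0.0408 in KKO. Between WT and KKO, same-numbered libraries correlated at -0.317 to 0.224 at 24 h and at -0.249 to 0.135 at 48 h. Of the WT values across time, only 0.343 lay above both ranges. Differently numbered libraries of 2 groups were not compared in this way, so whether equal numbers pair libraries is undecided. The meaning of a replicate number is not known. The alternatives tried were DESeq2 1.42.0, scaling by RLE or upper quartile, no low-count filter, only the 6 libraries compared, a replicate block, an adjusted p under 0.01, and leaving out each library or the 2 KKO libraries with both Xist and Y-linked transcripts, known from an earlier look at these data.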

Additional observations from a re-analysis of the deposited data

How the results depend on the processing

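Of the recomputed single-gene values 1643 kept their side of the threshold, 82 lost and 20 gained a call, and no called value changed sign. Counts moved as follows. At 24 h the 1 higher gene became 2 in the 6 libraries alone, and 0 with the replicate block, at an adjusted p under 0.01 and without the 2 mixed libraries. At 48 h the 2 higher genes became 1 with RLE scaling, no filter, the 6 libraries alone, the replicate block, an adjusted p under 0.01 and without those 2 libraries, and the 5 lower genes became 3 in the 6 libraries alone. Lower interactions went from 0 to 1 with upper-quartile scaling, 2 with DESeq2 and 1 with the replicate block. Of the KKO time effect, 8 higher genes became 5 with no filter, and 28 lower became 18 without those 2 libraries. Leaving out each library in turn gave 0 to 2 higher and 0 lower at 24 h, 1 to 2 higher and 3 to 14 lower at 48 h (14 without KKO replicate 2 at 48 h), 0 higher and 0 to 13 lower interactions (13 without the same library), 5 to 6 higher and 20 to 26 lower over time in WT, and 6 to 8 higher and 23 to 30 lower over time in KKO. With the replicate block the WT time counts stayed at 6 and 24, with Psmg4 gained and Psme4 lost. The causes were not tested. Depth limits Psme2b (41 to 157 counts), Psma8 and Psmb11; all other tested members had at least 216 counts in every library.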
